A study of Mus musculus with 5 samples.

Results

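The loci described are 8 genes that serve red cell formation: Klf1, Epor, Tfrc, Alas2, Slc4a1, Ermap, Rhd and Ank1. Their open chromatin was read from ATAC-seq peak lists, in which a peak marks a stretch of DNA where a transposase inserted adapters more often than in the surrounding background. A peak counted for a gene when it overlapped the gene body (mm10) or the 20 kb on either side. The 8 genes were chosen by name from 21883 protein-coding genes. Their windows held 27, 27, 48, 56 and 68 peaks of lists of 26885, 36467, 65880, 102822 and 121224 peaks. Here and below, values of the 5 libraries are given in the order Smc3-het replicates 1 and 2, then Smc3-wt replicates 1, 2 and 3.

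The cells were lineage-depleted bone marrow of mice, labelled as haematopoietic stem and progenitor cells (HSPC). All mice carried Mx1-Cre and the inv(16) allele and had been given PIPC, an interferon-inducing RNA polymer by which Cre is switched on from the Mx1 promoter, in blood and in other cell types. The 2 Smc3-het libraries had the genotype Smc3 D/+, and the 3 Smc3-wt libraries had Smc3 +/+. Smc3 encodes a subunit of the cohesin ring. The only contrast available asks how the Smc3 D/+ genotype goes with open chromatin on an inv(16) background, and the level of cohesin was not read here. Whether the libraries are from separate mice is not labelled, so p-values measure only how far these 5 libraries spread, and that spread may be technical.

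Red cell precursors are made in the marrow under the control of a few transcription factors. Klf1 and Gata1 proteins bind CACC boxes and GATA words at many genes of the lineage. Epor receives the erythropoietin signal that keeps precursors alive, Tfrc brings in iron on transferrin, and Alas2 catalyses the first step of heme synthesis in erythroid cells. Slc4a1 (band 3, the anion exchanger), Ank1 (ankyrin, which ties band 3 to spectrin), Rhd (an Rh protein) and Ermap (which carries the Scianna blood group in humans) belong to the red cell membrane. Lineage depletion removes most cells that carry surface antigens of mature blood lineages. These genes are therefore read here in bulk samples labelled as HSPC, whose cell composition was not tested.

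RefSeq promoter sequence (build GRCm38.p6) was held for 6 of the 8 genes, and 4 are shown because they span the range of accessibility found. The Tfrc promoter was open in every library, the Klf1 and Rhd promoters were open in some, and the Alas2 promoter was in no list. Each is the 250 bases before the gene start, written 5′ to 3′ on the strand of the gene. Capitals mark GATA words (the letters GATA with A or T before them and A or G after them) and CACC-like words (CCNCNCCC), on either strand. Words of the same kind can overlap and then run together in capitals.
Klf1 (chr8:84901732-84901981, + strand): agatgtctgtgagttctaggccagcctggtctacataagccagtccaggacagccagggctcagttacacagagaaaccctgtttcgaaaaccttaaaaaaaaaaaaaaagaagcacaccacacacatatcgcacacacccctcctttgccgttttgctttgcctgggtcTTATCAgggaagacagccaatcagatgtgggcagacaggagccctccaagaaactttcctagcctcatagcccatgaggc
Alas2 (chrX:150547167-150547416, + strand): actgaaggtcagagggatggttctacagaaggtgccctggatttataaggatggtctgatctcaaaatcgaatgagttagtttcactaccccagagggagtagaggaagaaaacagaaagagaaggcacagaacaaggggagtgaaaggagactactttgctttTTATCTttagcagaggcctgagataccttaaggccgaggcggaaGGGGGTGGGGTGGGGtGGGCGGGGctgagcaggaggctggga
Tfrc (chr16:32608646-32608895, + strand): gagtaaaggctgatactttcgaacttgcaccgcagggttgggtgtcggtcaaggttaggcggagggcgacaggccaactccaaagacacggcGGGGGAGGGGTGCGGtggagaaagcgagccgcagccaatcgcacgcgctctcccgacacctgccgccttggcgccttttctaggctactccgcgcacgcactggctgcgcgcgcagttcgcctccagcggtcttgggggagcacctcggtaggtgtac
Rhd (chr4:134864286-134864535, + strand): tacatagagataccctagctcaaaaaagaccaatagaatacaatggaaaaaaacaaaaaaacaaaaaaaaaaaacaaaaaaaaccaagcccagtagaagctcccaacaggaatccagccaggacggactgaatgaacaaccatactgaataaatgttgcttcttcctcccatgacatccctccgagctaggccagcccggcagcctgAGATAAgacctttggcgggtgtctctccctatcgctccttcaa

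A GATA word lay in the promoters of Klf1, Epor, Alas2, Ermap and Rhd and in neither Tfrc promoter listed, against 26.5% of all 32851 promoters of the same length. In Klf1 it spans −80 to −75 from the gene start, in Alas2 −86 to −81 and in Rhd −43 to −38. CACC-like words lay in the promoters of Epor, Tfrc and Alas2, against 45.9% of all promoters. The RUNX word TGTGGT was in those of Klf1 and Epor (14.0% of all promoters) and the ETS word GGAAGT in those of Ermap and, at its second start, Tfrc (19.7%). These are matches of letters and are not shown to be bound.

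Facts of the libraries bear on every value that follows. Background coverage was 3.59, 2.92, 2.74, 1.93 and 3.02 fragments per base, and the number of mapped fragments was not used here. Of regions made by joining overlapping peaks, 14625 were called in all 5 full lists. The median summit of these shared regions stood at 10.3, 12.7, 21.5, 22.8 and 29.1 times background, so the Smc3-het libraries had lower typical summits and shorter lists. Counts are therefore given first in lists of equal size, made of the 26885 peaks with the highest authors' −log10 p in a library, and heights also relative to the median of the shared regions. Gene ends of 8 HSPC marker genes had a peak at 5, 3, 5, 4 and 4 of the genes in equal-size lists, with Meis1 and Flt3 in every library and Mecom in none. The markers of granulocytes and monocytes had 1, 1, 1, 0 and 0 of 10, those of B cells 2, 1, 1, 0 and 2 of 8, and those of T and NK cells 2, 3, 1, 0 and 1 of 8. Megakaryocyte markers had 3, 4, 4, 1 and 3 of 8, mast cell and basophil markers 1, 1, 3, 1 and 2 of 6, and stromal and endothelial markers 3, 2, 1, 3 and 3 of 6. Over all protein-coding genes the share with a gene-end peak was 48.7%, 48.8%, 49.2%, 48.6% and 49.5%. The part of cell composition in the results was not tested. The 4 Y-linked genes Kdm5d, Eif2s3y, Uty and Ddx3y had gene-end peaks in Smc3-wt replicates 1 and 3 and in no other library. In a bulk sample, fewer cells with an open site and less opening per cell cannot be told apart.

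In equal-size lists the 8 loci together held 27 and 25 peaks in Smc3-het against 26, 23 and 25 in Smc3-wt, and the groups overlapped. The mean was 26 against 24.7, a difference of 1.33 peaks. Single loci differed in both directions. Klf1 had 3 and 3 peaks against 4, 5 and 4, and Rhd 2 and 2 against 5, 3 and 4, so both had fewer in Smc3-het with no overlap between groups. Ermap had 4 and 4 against 3, 3 and 3, and Ank1 8 and 5 against 4, 3 and 4, so both had more. Of all 17885 genes with a peak in their window, 4.61% had fewer peaks in Smc3-het with no overlap and 5.34% had more. The groups overlapped at Epor (2 and 3 against 2, 2 and 2), Tfrc (3 and 4 against 3, 3 and 3), Alas2 (2 and 3 against 4, 3 and 3) and Slc4a1 (3 and 1 against 1, 1 and 2). For Klf1, Rhd, Ermap and Ank1 the two-sided exact permutation p was 0.2 (n = 2 and 3), the smallest that 5 libraries allow, and for the others it was 0.6 or 0.8. No single count could therefore pass a threshold of 0.05.

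Full lists, which are longer in Smc3-wt, gave 27 and 27 peaks against 48, 56 and 68, and 7 of the 8 loci had fewer in Smc3-het with no overlap. Of all genes with a peak in their window, 44.7% had fewer without overlap and 0.0714% had more. The largest step was at Ank1, a gene of 175666 bp, with 8 and 5 peaks against 12, 15 and 26. Epor, the remaining locus, had 2 and 3 against 3, 2 and 3.

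**Figure D1:**
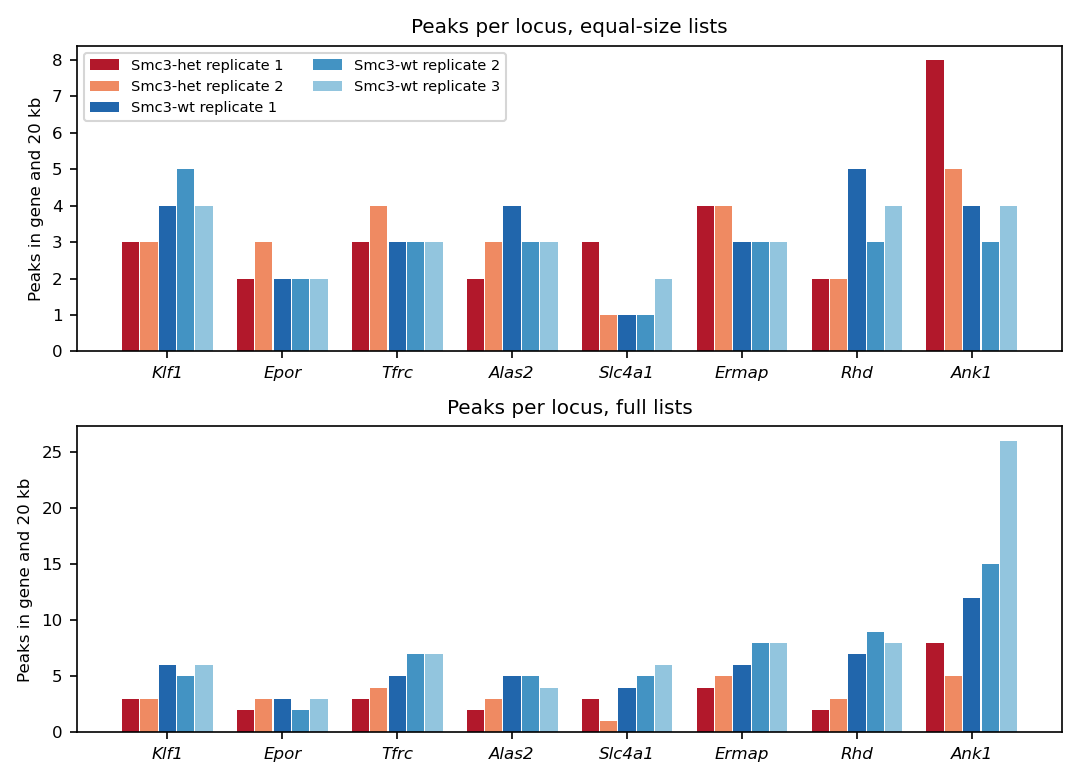
Number of peaks (vertical axis) within each gene and 20 kb of it (horizontal axis), by library, in equal-size lists above and full lists below. In equal-size lists the Smc3-het bars are lower at Klf1 and Rhd and higher at Ermap and Ank1, while in full lists they are lower at every locus but Epor.

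Many of these peaks lay at neighbouring genes. Of the peaks in equal-size lists, 11, 10, 7, 8 and 8 lay within 1 kb of an end of another protein-coding gene, 7, 6, 9, 6 and 9 inside the member gene and 3, 5, 5, 5 and 6 at its own ends. The other genes that reach into the windows are Syce2, Gcdh, Dnase2a and Mast1 beside Klf1, Plppr2, Swsap1 and Rgl3 beside Epor, and Tnk2 beside Tfrc. Apex2 and Pfkfb1 lie beside Alas2, Zfp691, Svbp and Tmem269 beside Ermap, Maco1 and Tmem50a beside Rhd, and Nkx6-3 beside Ank1. The window of Slc4a1 holds no other protein-coding gene. A gene-end peak was present at 3, 5, 4, 4 and 5 of the 8 members, while 48.7%, 48.8%, 49.2%, 48.6% and 49.5% of all protein-coding genes had one. In full lists it was 3, 6, 6, 7 and 6 members, against 48.7%, 50.8%, 57.0%, 60.9% and 63.3% of all protein-coding genes. Tfrc and Klf1 were open at a gene end throughout and Alas2 nowhere, in either kind of list. No member had gene-end peaks in all libraries of a single genotype alone, in either kind of list. The shares over all genes with a gene-end peak were 0.938% open in Smc3-wt alone and 0.693% in Smc3-het alone, and in full lists 3.69% and 0.0503%.

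At Klf1 (chromosome 8, 84901982 to 84905291), which encodes the erythroid Krüppel-like factor, a region inside the gene was open in all 5 libraries. It ran from 84902509 to 84903520, with summits 1.01 to 1.33 kb after the gene start. Summit pileup there was 12.8, 13.7, 18.6, 24.4 and 24.5 times background, 13.2 ± 0.624 (SD, n = 2) against 22.5 ± 3.38 (SD, n = 3). Relative to the shared regions of each library it was 1.24, 1.08, 0.864, 1.07 and 0.841, so that the Smc3-het values were just above those of Smc3-wt. The log2 difference was 0.33 with SE 0.29 and did not pass the test (limma, adjusted p 0.511).

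Before the Klf1 start a second region, from 84900998 to 84902023, was called in the full lists of all Smc3-wt libraries and of neither Smc3-het library. Its summits stood at 8.02, 13.0 and 14.5 times background, at −0.750, −0.795 and −0.725 kb from the gene start. In Smc3-wt replicate 3 the peak covered all 250 bases of the promoter shown above, GATA word included. A second, weaker peak of Smc3-wt replicate 1 covered 163 of these bases, and the peak of Smc3-wt replicate 2 lay wholly upstream of them. Whether a summit of like relative height could have been called there in the Smc3-het libraries, whose summits are lower, was not tested, here or at the other regions missing from their lists. The equal-size lists held it in Smc3-wt replicates 2 and 3 only. Another region, from 84913050 to 84913645 and away from gene ends, likewise appeared in the full lists of the 3 Smc3-wt libraries alone, at 12.0, 11.9 and 8.93 times background. The peaks at the ends of the neighbours Gcdh, a mitochondrial dehydrogenase gene, and Dnase2a, a lysosomal nuclease gene, were in all 5 libraries, at 12.2, 14.4, 17.5, 13.5 and 29.1 and at 16.1, 8.90, 12.8, 23.4 and 22.2 times background. Relative to shared regions the Gcdh end stood at 1.19, 1.14, 0.814, 0.591 and 1.00, higher in both Smc3-het libraries than in any Smc3-wt library. Its log2 difference of 0.57 (SE 0.31) did not pass the test (limma, adjusted p 0.263), nor did that of the Dnase2a end, 0.44 (SE 0.34, limma, adjusted p 0.456).

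At Epor (chromosome 9, 21958897 to 21963576), the erythropoietin receptor gene, the gene held, near its start, a wide peak in 4 of 5 libraries. It was absent from the list of Smc3-het replicate 1 and stood at 8.55 times background in Smc3-het replicate 2, against 24.1, 18.2 and 34.7 in Smc3-wt. Relative to shared regions that is 0.676 in Smc3-het replicate 2 against 1.12, 0.795 and 1.19, so the 1 Smc3-het value lies below all 3. Summits were 0.816 to 1.03 kb after the start, and only the peak of Smc3-wt replicate 3 reached into the 250 bases before it, by 58 bases. The strongest peak of all 8 windows lay 7.73 kb after the Epor start, at an end of Swsap1, which encodes a protein of homologous recombination. It had 36.2, 51.7, 82.4, 74.8 and 122 times background and, relative to shared regions, 3.51, 4.08, 3.83, 3.27 and 4.19, with the groups overlapping (log2 0.02, SE 0.19, limma, adjusted p 0.971).

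**Figure D2:**
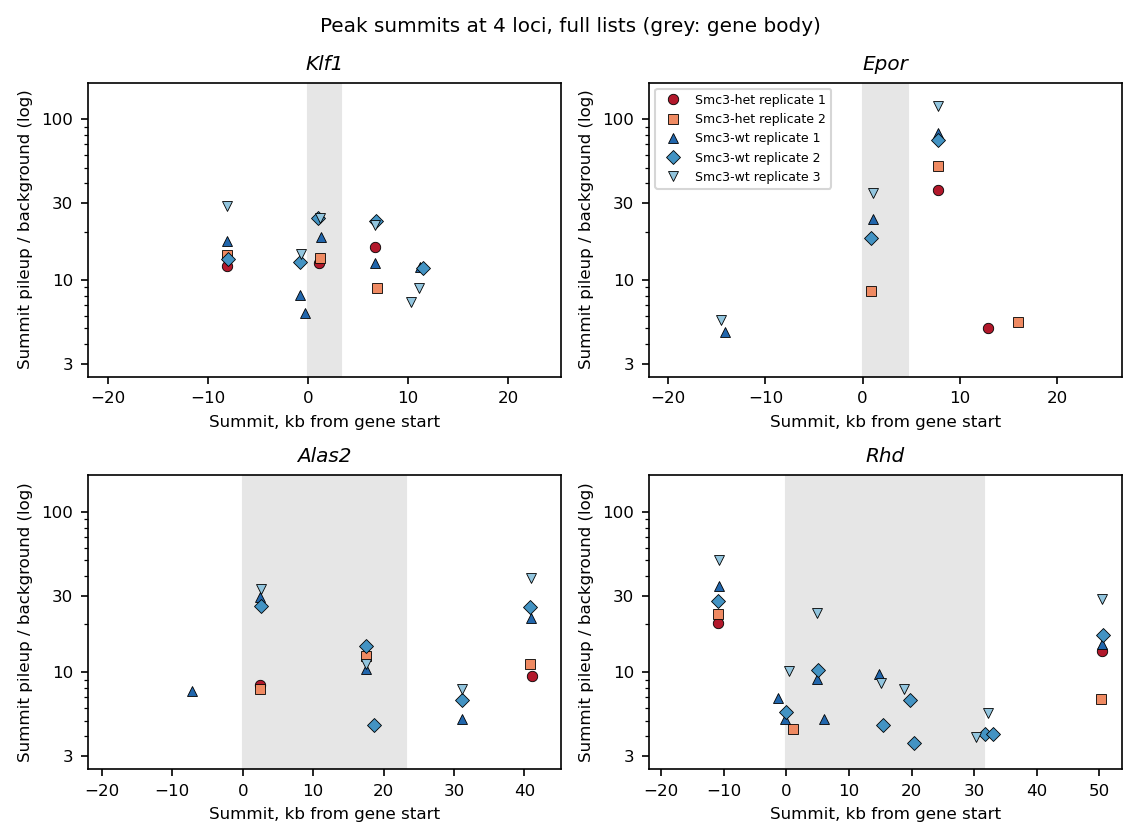
Peak summits at 4 loci in full lists, by distance from the gene start in kb (horizontal) and summit pileup over the background of the library (vertical, log axis), with the gene body in grey. At Alas2 the 2 Smc3-het points 2.5 kb after the start lie well below the 3 Smc3-wt points, and at Rhd no Smc3-het point lies 5.0 kb after the start.

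Of the iron and heme genes, Tfrc (chromosome 16, 32608896 to 32632794) showed the steadiest promoter. A peak covered all 250 bases before its start in all 5 libraries, at 15.0, 19.2, 23.0, 26.0 and 38.4 times background. Relative to shared regions it stood at 1.46, 1.51, 1.07, 1.14 and 1.32, higher in both Smc3-het libraries than in any Smc3-wt library. The log2 difference of 0.35 (SE 0.26) did not pass the test (limma, adjusted p 0.439). The peak at the end of Tnk2, a tyrosine kinase gene downstream, had 9.19, 6.84, 9.84, 14.5 and 12.2 times background (log2 0.48 in relative height, SE 0.37, limma, adjusted p 0.450).

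Alas2 (chromosome X, 150547417 to 150570622) had no peak at either gene end in any list. Its main open region lay inside the gene, from 150549271 to 150550800, with summits 2.43 to 2.55 kb after the start. Pileup there was 30, 23, 81, 50 and 100 fragments, or 8.35, 7.87, 29.5, 26.0 and 33.1 times background. The mean was 8.11 ± 0.340 (SD, n = 2) in Smc3-het and 29.5 ± 3.55 (SD, n = 3) in Smc3-wt, 3.64-fold apart. Among the 16 shared regions of the 8 loci this was the widest gap between groups. Relative to shared regions the region stood at 0.811, 0.622, 1.37, 1.14 and 1.14, with both Smc3-het values below the others. Of all shared regions, 21.1% were lower in Smc3-het without overlap. The log2 difference was −0.77 with SE 0.29, an unadjusted limma p of 0.0126 and an adjusted p of 0.107, which misses 0.05. It was negative under every alternative that kept the region, from −0.29 with the deposited fold to −0.96 without Smc3-het replicate 1. Without centring it was −1.86, the only setting in which it passed (limma, adjusted p 6.76e-06). In that setting 10343 of all 14625 shared regions passed as lower.

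Regions on the X chromosome stood lower in Smc3-het on balance, as Alas2 did. The 328 shared regions on X had a median relative height, on the log2 scale, of −0.26, −0.04, 0.09, 0.13 and −0.04. Measured against the other X regions, an alternative chosen after seeing the data, the Alas2 difference was −0.56 (SE 0.29, limma, adjusted p 0.248). Among the Smc3-wt libraries, replicates 1 and 3, which had the Y-linked peaks, stood at 29.5 and 33.1 times background and replicate 2, which had none, at 26.0. Relative to shared regions, Smc3-wt replicates 2 and 3 were equal at 1.14 and replicate 1 stood at 1.37. Both Smc3-het libraries also lacked the Y-linked peaks, and the part of this in the Alas2 difference was not tested. A second Alas2 region, 17.5 kb after the start (150564565 to 150565318), was in 4 of 5 libraries, at 12.7 times background in Smc3-het replicate 2 against 10.6, 14.5 and 11.2 in Smc3-wt. Its order differs from that of the first region, since relative to shared regions it was 1.00 in Smc3-het replicate 2 against 0.492, 0.636 and 0.386 in Smc3-wt. The nearby end of Apex2, a DNA repair nuclease gene, and Pfkfb1 had 9.47, 11.3, 21.9, 25.4 and 39.0 times background. Its relative height was lower in both Smc3-het libraries than in any Smc3-wt library, with a log2 difference of −0.34 (SE 0.28, limma, adjusted p 0.489).

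Of the membrane genes, Slc4a1 (chromosome 11, 102348820 to 102365281) had little open chromatin. A peak at an end of the gene, the one with the higher coordinate, was in Smc3-wt replicates 2 and 3 only, at 7.79 and 12.2 times background. A single region of its window was in all 5 libraries, beyond that end (102374997 to 102376973), at 8.63, 6.16, 9.84, 9.87 and 22.8 times background. The log2 difference in relative height was 0.25 (SE 0.38, limma, adjusted p 0.731), and Smc3-het replicate 1 and Smc3-wt replicate 3 lay apart from the other 3 libraries. Without Smc3-het replicate 1 it turned to −0.14.

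Ank1 (chromosome 8, 22974836 to 23150501) had 40 regions over the 5 full lists, of which 28 were in a single library. No peak lay at the end with the lower coordinate, and the promoters that different tissues use within the span are not told apart here. Of its 3 shared regions, all inside the gene, the strongest (23027823 to 23028944) stood at 12.8, 15.4, 37.5, 30.1 and 38.0 times background. Relative to shared regions it was 1.24, 1.22, 1.75, 1.32 and 1.31, lower in both Smc3-het libraries by a small step (log2 −0.23, SE 0.26, limma, adjusted p 0.625). The next, from 23034803 to 23035526, had 8.35, 5.48, 13.9, 12.5 and 18.8 times background (log2 −0.04, SE 0.36, limma, adjusted p 0.956). At the third, from 23053361 to 23054838, the values 8.63, 9.24, 23.3, 8.83 and 29.4 split the Smc3-wt libraries, with replicate 2 at the level of Smc3-het (log2 0.06, SE 0.37, limma, adjusted p 0.943). The difference at the third region was −0.42 without Smc3-wt replicate 2. In equal-size lists 5 regions of the window were found in a Smc3-het and in no Smc3-wt library, each in 1 library and at 3.62 to 7.87 times background. In full lists 1 region of the window was of this kind, and the share over all regions was not computed. The lowest summit kept at equal size was 3.34, 4.79, 6.56, 8.31 and 7.93 times background, so Smc3-wt peaks of such heights mostly fall outside these lists.

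Ermap (chromosome 4, 119175457 to 119190013) had a peak over the gene start in Smc3-het replicate 2, at 6.50 times background, and in all 3 Smc3-wt libraries, at 9.48, 8.31 and 16.5. A separate peak of Smc3-wt replicate 2, with its summit at −0.678 kb, stood at 10.4. Relative to shared regions, the strongest peak around the gene start was 0.514 in Smc3-het replicate 2, within the Smc3-wt range of 0.441, 0.455 and 0.568. In Smc3-het replicate 1 no peak was called there. At its other end a region shared with Zfp691, a zinc finger gene, was in all 5 libraries at 12.8, 12.0, 20.8, 32.2 and 39.0 times background, with a log2 difference in relative height of −0.17 (SE 0.28, limma, adjusted p 0.751). The end of Svbp (119194672 to 119196052), which encodes a vasohibin-binding protein, was also in all 5 full lists, at 8.07, 7.53, 7.65, 12.5 and 11.2 times background. The equal-size lists kept this peak in both Smc3-het libraries and, of Smc3-wt, in replicate 2 alone. In full lists the Ermap window had 4 and 5 peaks in Smc3-het against 6, 8 and 8 in Smc3-wt. Relative to shared regions the Svbp end stood at 0.784, 0.595, 0.356, 0.545 and 0.386, higher in both Smc3-het libraries than in any Smc3-wt library. Its log2 difference of 0.69 (SE 0.37), second in size among the 16 shared regions to that of Alas2, did not pass the test (limma, adjusted p 0.261). A region inside the gene (119181228 to 119182101) was listed for all Smc3-wt libraries and for neither Smc3-het library in full lists, at 7.29, 12.5 and 5.62 times background.

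Rhd (chromosome 4, 134864536 to 134896172) had a region called in the Smc3-wt libraries alone, also at equal size. A region 5.0 kb after the gene start (134869137 to 134870168) was listed for all Smc3-wt libraries and for neither Smc3-het library, at equal size and in full, at 9.11, 10.4 and 23.5 times background. It was the 1 such region among 42 regions of the 8 windows in equal-size lists, where 1.91% of all regions were of this kind. A count of 1 in 42 is close to that share. A further Rhd region (134879190 to 134880100) was in all Smc3-wt and no Smc3-het full lists at 9.84, 4.67 and 8.60 times background. Around the gene start, peaks were low in every library that had one. They stood at 4.45 times background in Smc3-het replicate 2 against 5.10, 5.71 and 10.2 in Smc3-wt. Relative to shared regions that is 0.351 against 0.237, 0.25 and 0.352, so the Smc3-het value lies within the Smc3-wt range. The summits were not at one place, from −0.247 kb in Smc3-wt replicate 1 to 0.998 kb in Smc3-het replicate 2, and neither the last nor the peak of Smc3-wt replicate 3, the strongest, overlaps the promoter sequence above. The neighbours differed from Rhd itself, since the end of Maco1 was open in all 5 libraries at 20.3, 23.3, 34.6, 28.0 and 50.3 times background and that of Tmem50a at 13.6, 6.84, 14.9, 17.1 and 28.8. In relative height the Maco1 end was higher in both Smc3-het libraries than in any Smc3-wt library (log2 0.34, SE 0.24, limma, adjusted p 0.412), and the groups overlapped at the Tmem50a end (log2 0.08, SE 0.35, limma, adjusted p 0.918).

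**Figure D3:**
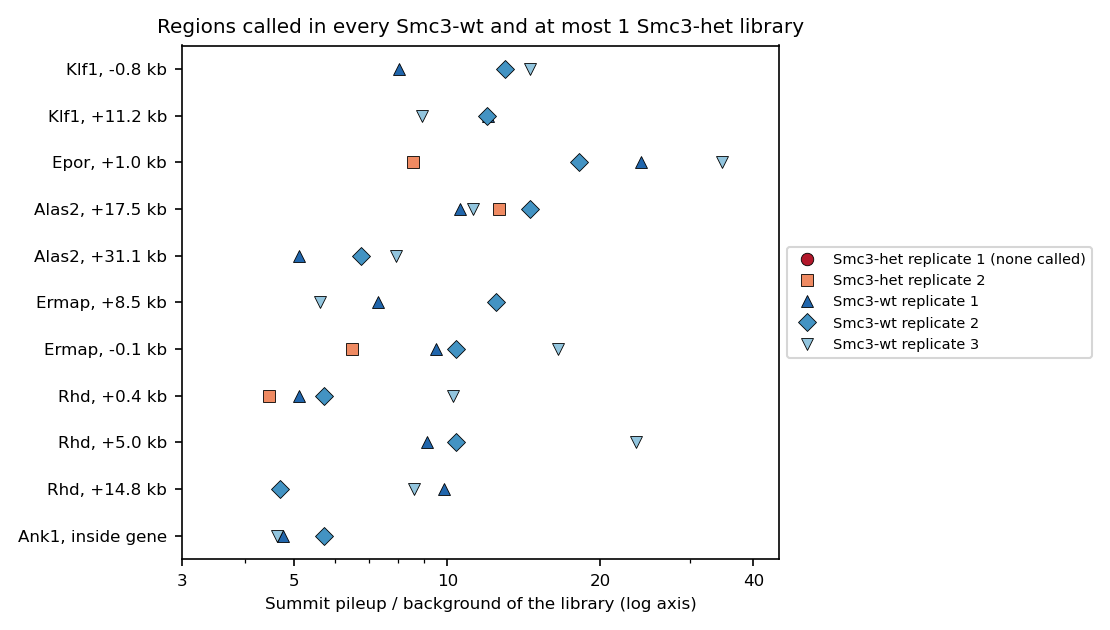
Regions called in every Smc3-wt and at most 1 Smc3-het full list, named by gene and distance of a summit from the gene start, at the height of the strongest peak of a library in the region, with summit pileup over background on a log axis, each point 1 library. Smc3-het replicate 1 has none of these regions, and the Smc3-wt points at Klf1, Epor and Rhd reach 14.5, 34.7 and 23.5 times background.

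Over the full lists the 8 windows held 102 regions, of which 57 were in a single library and 16 in all 5. Of the 102, 7 were called in every Smc3-wt and no Smc3-het library, at Klf1, Rhd, Alas2, Ermap and Ank1, against 2.44% of all 232104 regions. None was called in both Smc3-het and no Smc3-wt library, where 0.0745% of all regions were. The full Smc3-het lists are much shorter, so these counts do not compare the genotypes at equal list length. Without Smc3-het replicate 2 the count in equal-size lists was 3 in place of 1, and without Smc3-wt replicates 1, 2 and 3 it was 2, 2 and 3. Leaving out a library removes a condition, so this count could only stay or rise.

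Among the 16 shared regions none passed the test across all 14625 shared regions, of which 6.15% passed (limma, adjusted p under 0.05), 4.51% lower and 1.64% higher in Smc3-het. At an unadjusted limma p under 0.05, 1 of the 16 was lower, the Alas2 region, and 0 were higher. Of the 16, 5 had a lower relative height in Smc3-het, against 49.1% of all shared regions. Groups did not overlap at 3 lower and 5 higher regions, against 21.1% and 18.5% of all shared regions. The median limma difference was 0.16 on the log2 scale over the 16 and 0.01 over all. The median relative height of the 16 regions was 0.28, −0.31, −0.13, 0.06 and 0.01 on the log2 scale, with the Smc3-het libraries on either side of Smc3-wt. The mean was −0.01 ± 0.42 (SD, n = 2) against −0.02 ± 0.10 (SD, n = 3). Without centring the libraries, the median shift of all regions was −1.08. In that setting 10 of the 16 passed as lower, as did 10343 of all 14625 shared regions.

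**Figure D4:**
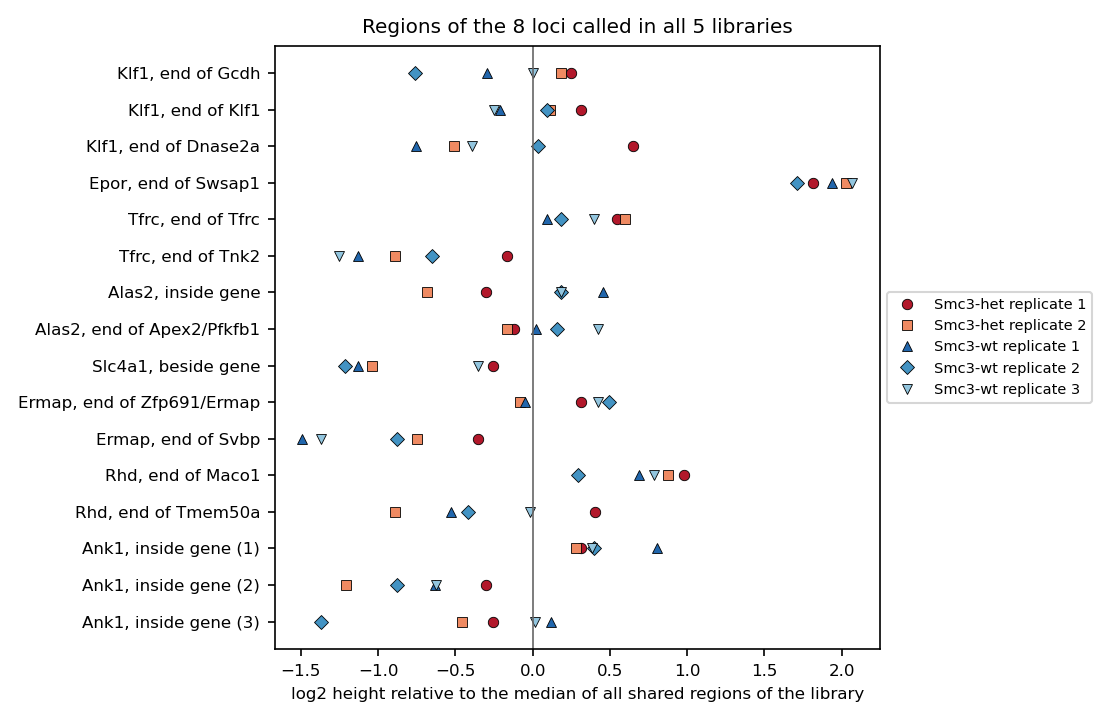
Height of the 16 regions of the 8 loci called in all 5 libraries, as log2 of summit pileup over background relative to the median of all 14625 shared regions of the same library, each point 1 library. Only the 2 Alas2 regions and the first Ank1 region have both Smc3-het points below all Smc3-wt points.

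Of further genes of the lineage, 3 lists were read the same way. Gene-end peaks were present in equal-size lists at 10, 9, 10, 10 and 11 of 14 genes of the membrane skeleton and blood group antigens. The counts were 12, 12, 13, 11 and 13 of 15 heme and iron genes, and 8, 8, 9, 7 and 8 of 12 erythroid regulators, with the groups overlapping in each list. Of all protein-coding genes, 48.7%, 48.8%, 49.2%, 48.6% and 49.5% had a gene-end peak in these libraries. Peaks in the windows of the heme and iron genes summed to 45, 44, 55, 51 and 56, fewer in both Smc3-het libraries than in any Smc3-wt library. How often other sets of 15 genes separate in this way was not tested. The sums were 41, 39, 46, 38 and 54 for the membrane list and 54, 54, 60, 49 and 58 for the regulators, with the groups overlapping. None of these genes had gene-end peaks in all libraries of a single genotype alone. At their 8, 14 and 8 shared gene-end regions, 0, 1 and 0 passed the test, lower in Smc3-het, a smaller share than the 4.51% of all shared regions that passed as lower. The 1 was Cpox, which encodes coproporphyrinogen oxidase of the heme pathway (chromosome 16, 58668998 to 58670790), at 18.7, 46.5, 113, 110 and 166 times background. Its log2 difference was −1.02 (SE 0.22, limma, adjusted p 0.00562). The call rests on Smc3-het replicate 1, without which it was −0.51 (limma, adjusted p 0.300), and was also lost without Smc3-wt replicate 1 (limma, adjusted p 0.0658). With quantile normalization it was −0.69 (limma, adjusted p 0.106), and with the authors' deposited fold it turned to 0.11 (limma, adjusted p 0.860).

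The genes outside these windows whose peak counts over the 5 equal-size lists were most like the mean of the 8 members were Pik3r1, Vps52 and Efcab12, of 9716 compared. They had 8, 7, 7, 6 and 7 peaks at Pik3r1 and 6, 6, 6, 5 and 6 at each of the others, at Euclidean distances of 0.0825, 0.0847 and 0.0847 between counts divided by their mean.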

How the data were processed

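ATAC-seq was read from 5 deposited peak lists, 2 Smc3-het and 3 Smc3-wt, grouped by the sample titles and matched to samples by the names of the sheets and peaks. Bowtie2, MACS2 and the build mm10 are named in the submitters' processing notes, with versions not given in the sources used here. Names of the deposited peaks show 1 list per library, paired-end calling and removal of mitochondrial reads. The deposited pileup is a coverage signal in fragments at the summit, the deposited fold enrichment is a ratio to local background per the file headers, and 2 deposited columns whose headers were lost are, by order and values, −log10 p and −log10 q. All of them are the authors' values, not recomputed.

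Peaks outside the autosomes, X and Y were dropped, and those of a library that overlap were joined. Background coverage is the commonest local value implied by pileup and fold, given the MACS2 pseudocount of 1. Equal-size lists held the 26885 peaks of highest −log10 p. Regions joined peaks of any library that overlapped by at least 1 bp. Gene coordinates and promoters came from RefSeq tables of GRCm38.p6, the build of mm10. A gene end is within 1 kb of either end of the gene. Gene starts came from the promoter table, and Slc4a1 and Ank1 were given none. No exon map was used.

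Log2 pileup over background in regions called in all 5 lists, centred on the median of each library, was tested with limma 3.58.1 (R 4.3.3, eBayes with trend) with Benjamini-Hochberg adjustment over all regions, and was first tested on simulated data. Regions missing from a list could not enter. Single counts were compared by two-sided exact permutation tests. The 8 members and the lists were chosen with earlier results of these data known. In each window the rule named the region at a gene end and the strongest other region in at least 3 libraries. Further regions were named after their values were seen.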

Additional observations from a re-analysis of the deposited data

How the results depend on the processing

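The total of peaks in the 8 windows differed by 1.33 in equal-size lists, by −30.3 in full lists, by −16.5 where −log10 q reached 5, by −0.667 with windows of 10 kb and by 4.17 with windows of 50 kb. Leaving out 1 library gave 0.333 to 2.33. The count of members with a gene-end peak differed by −0.333, and by −1.83 in full lists, −1.33 in lists of 13442 peaks and −2.33 where −log10 q reached 5. Leaving out 1 library gave −1.33 to 0.667. Regions in every Smc3-wt and no Smc3-het library numbered 1, and 7 in full lists, 5 where −log10 q reached 5 and 2 with an overlap of 50%, or 1 to 3 without 1 library. The reverse count of 0 was 1 with ranking by fold and 0 to 6 without 1 library. Either count could only stay or rise without a library, so these ranges do not measure stability. Of all regions, 1.91% were in every Smc3-wt and no Smc3-het library at equal size and 2.44% in full lists. The reverse shares were 1.08% and 0.0745%, and shares under the other settings were not computed. Lists where −log10 q reached 5 were not cut to equal size. Regions that passed limma numbered 900, and 286 with quantile normalization (138 lower and 148 higher in Smc3-het), 10363 without centring, 11 with the deposited fold (1 lower and 10 higher) and 535 with an overlap of 50%. Leaving out 1 library gave 81 to 1341, with 81 without Smc3-het replicate 1 and 155 and 452 without Smc3-wt replicates 1 and 3. Member regions that passed numbered 0 in each of these but 10 without centring. The median relative height of member regions, which differed by 0.01, ran from −0.29 to 0.30 without 1 library.

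Whether the replicate numbers pair the libraries was not settled. Deviations of same-numbered libraries from their group means correlated at −0.0637 and −0.0673. The deviations of the 2 Smc3-het libraries are mirror images, so these values cannot decide it. With the number as a replicate block 393 regions passed, and 0 of the members.

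Some differences in relative height turned sign. Leaving the libraries uncentred gave −0.84 for Slc4a1, −0.74 for Tfrc, −0.75 for Klf1 and −1.03 for the third Ank1 region, and at neighbours' ends −0.52 for Gcdh, −0.65 for Dnase2a, −1.07 for Swsap1, −0.60 for Tnk2, −0.39 for Svbp, −0.75 for Maco1 and −1.01 for Tmem50a. Leaving out 1 library gave −0.14 to 0.64 for Slc4a1, lowest without Smc3-het replicate 1. It gave −0.37 to 0.025 for Ermap and −0.50 to 0.41 for the second Ank1 region, both highest without Smc3-het replicate 2. For the third Ank1 region it gave −0.42 (without Smc3-wt replicate 2) to 0.32, with −0.042 without Smc3-het replicate 1. The second was 0.0030 in equal-size lists, and the third −0.00021 with quantile normalization. Leaving out 1 library gave −0.092 to 0.12 for Swsap1, −0.14 to 1.02 for Dnase2a and −0.57 to 0.72 for Tmem50a, with −0.082 for Swsap1 without Smc3-wt replicate 2 and −0.025 for Tmem50a without Smc3-wt replicate 1. With the deposited fold Swsap1 was −0.010, Tnk2 −0.0072, Dnase2a −0.12, Tmem50a −0.40 and Cpox 0.11, and Swsap1 was −0.0037 with chromosome X centred apart. The cause was not tested. The lower summits and short lists of Smc3-het limit what an absent peak can show.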
